A study of Mus musculus with 10 samples.

Results

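The amino acid transporter genes of the mouse oviduct were followed in animals that lack the progesterone receptor. They were taken as every gene whose annotated symbol begins with Slc1a, Slc3a, Slc6a, Slc7a, Slc36a, Slc38a or Slc43a and a number, with the probe set of highest mean signal standing for each gene. The rule found 64 of the 19938 genes tested. Of these, 62 are carriers or their subunits, and the other 2, Slc6a19os and Slc7a6os, are named after the carrier gene they lie opposite. The families also hold some carriers that move no amino acid, such as those for monoamines, creatine and nucleobases, so the name is looser than the list.

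Tested animals, called PRKO, carried a lacZ insertion in both copies of the progesterone receptor gene Pgr, which disrupts the gene, and their controls, called PR+/-, carried it in 1 copy. Both genotypes therefore hold the insertion, the receptor is absent from every cell of PRKO animals rather than from 1 cell type, and no wild-type oviduct was included. All animals were prepubertal, were given 5 IU of equine chorionic gonadotropin, which drives follicle growth, at 21 to 23 days of age, and 44 to 47 h later 5 IU of the human hormone (hCG), which sets off ovulation. Whole oviducts were collected 8 h after the hCG dose. Each array carries RNA from a pool of 3 animals, and there were 5 PRKO and 5 PR+/- arrays.

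Cells take up and release amino acids through carriers that differ in substrate and in what they exchange or carry along. Members of the SLC7 family that form heteromeric carriers work as a light chain bound to a heavy chain from the SLC3 family, SLC1 carriers move glutamate or small neutral amino acids, SLC38 carriers move glutamine and other neutral amino acids with sodium, and SLC6 carriers use sodium and chloride. Oviduct fluid, in which eggs and early embryos lie, holds free amino acids, glycine and taurine among them. Values are log2 signals of an Affymetrix whole-transcript array, and a difference is PRKO minus PR+/-.

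The promoters of Slc7a8, the gene of the set that differed most between genotypes, and of Slc3a2, which encodes the heavy chain that its product needs, are shown because both belong to 1 carrier. Each line gives the 250 bases before the RefSeq gene start, 5′ to 3′ on the gene's strand, build GRCm38.p6. Capitals mark GGGCGG, the GC box letters.
Slc7a8, chr14:54781887-54782136, minus strand: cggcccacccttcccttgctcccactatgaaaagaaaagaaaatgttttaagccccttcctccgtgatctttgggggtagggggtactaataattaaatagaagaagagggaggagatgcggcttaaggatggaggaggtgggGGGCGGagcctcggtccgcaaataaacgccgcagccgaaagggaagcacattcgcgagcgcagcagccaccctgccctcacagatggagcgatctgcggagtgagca
Slc3a2, chr19:8713898-8714147, minus strand: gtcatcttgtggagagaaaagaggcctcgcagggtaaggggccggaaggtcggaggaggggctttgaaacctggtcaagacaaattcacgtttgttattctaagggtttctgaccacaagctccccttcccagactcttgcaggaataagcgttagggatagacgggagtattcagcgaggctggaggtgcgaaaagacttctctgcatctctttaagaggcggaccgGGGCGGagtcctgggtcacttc
Neither window held TGTTCT, the core site of receptors for progesterone and glucocorticoids, on either strand, and neither held a looser palindrome of that core site (degenerate at several bases) or TGATGNAA, a core of sites bound by the factor ATF4. TGTTCT was found in 16.1% of all 32851 promoter windows of this length and in 9 of the 68 windows of the 47 members that had an entry, and GGGCGG in 32.7% of all windows and 32 of the 68. The palindrome was in 0.387% of all windows and 1 of the 68, and TGATGNAA in 3.45% and 4 of the 68.

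Pgr itself had a log2 signal of 6.31 to 6.39 on PRKO arrays, against 7.27 to 7.55 on PR+/- arrays, and was thus lower in every PRKO pool, at 48.0% of the PR+/- signal (exact permutation test, two-sided, p = 0.00794, which is the lowest value 252 arrangements can give). Arrays correlated over genes at 0.988 to 0.992 within PRKO and at 0.994 to 0.996 within PR+/-. The interquartile range of an array's values was 3.13 to 3.42 in PRKO and 3.37 to 3.48 in PR+/-. Of 7 markers of the oviduct epithelium, not all particular to its secretory cells, 1 fell, Cldn3 (log2 difference -0.98, limma adjusted p = 0.000566). The other 6, Epcam and Pax8 among them, did not pass the test. Of 8 multiciliated markers, 1 rose, Cfap43 (0.55, limma adjusted p = 0.00162), and 7 did not pass, Foxj1 among them. Ovgp1 is not analysed here. Ovarian marker signal was highest in PRKO replicate 3 and PR+/- replicate 4, where Cyp11a1, the first enzyme of steroid synthesis, read 7.10 and 7.04 and was at most 4.68 on the other 8 arrays.

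One carrier gene, Slc7a8, was far lower in PRKO oviducts, 1 gene of the set was slightly higher, and the remaining 62 did not pass the test. In limma with Benjamini-Hochberg adjustment over all genes at 0.05, 1 of the 64 fell, where 3.87% of all tested genes fell, and 1 rose, where 1.09% of all tested genes rose. Together, 2 of 64 (3.12%) were called, against 4.96% of all genes. At an unadjusted p under 0.05, 19 of 64 differed, 10 lower and 9 higher in PRKO, where the share over all genes was 21.1%, with 11.1% lower and 10.1% higher. The median log2 difference was 0.04 over the set and 0.03 over all genes. The 5 PRKO and 5 PR+/- values did not overlap for 8 of the 64, where 7.20% of all genes had no overlap.

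Slc7a8 encodes LAT2, an exchanger of neutral amino acids that sits mainly in the basolateral membrane of epithelia. Its log2 signal was 5.88, 6.18, 7.17, 6.56 and 6.36 in PRKO replicates 1 to 5, and 7.95, 8.18, 8.08, 8.26 and 8.24 in PR+/- replicates 1 to 5. Every PRKO pool lay below every PR+/- pool, with a gap of 0.78 between the highest PRKO and the lowest PR+/- value. The mean was 6.43 ± 0.48 in PRKO and 8.14 ± 0.13 in PR+/- (SD, n = 5 each). The log2 difference was -1.71 ± 0.18 (SE), a 3.27-fold lower signal with a 95% interval of 2.51 to 4.27-fold (limma adjusted p = 4.36e-05). PRKO oviducts thus held 30.6% of the heterozygous signal.

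PRKO pools spread more than PR+/- pools in most genes. The SD was larger in PRKO for 14901 of the 19938 genes tested (74.7%) and for 43 of the 64. In Slc7a8 the PRKO pools spread widely. Between the lowest and the highest PRKO pool Slc7a8 differed 2.43-fold, and between the PR+/- pools 1.24-fold. Its SD in PRKO was the largest among the 64 genes, the next being 0.37 (Slc43a2), and only 0.797% of all tested genes had a larger one. The highest PRKO value, 7.17, was that of replicate 3, the pool with the high Cyp11a1 signal. In PR+/-, replicate 4, the other such pool, was highest at 8.26, with replicate 5 close to it at 8.24. The part of ovarian tissue in these values was not tested. Without PRKO replicate 3 the log2 difference was -1.89. Without both PRKO replicate 3 and PR+/- replicate 4 it was -1.86, with the gene called both times. In whole tissue, fewer cells of a type and less RNA per cell cannot be told apart.

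**Figure D1:**
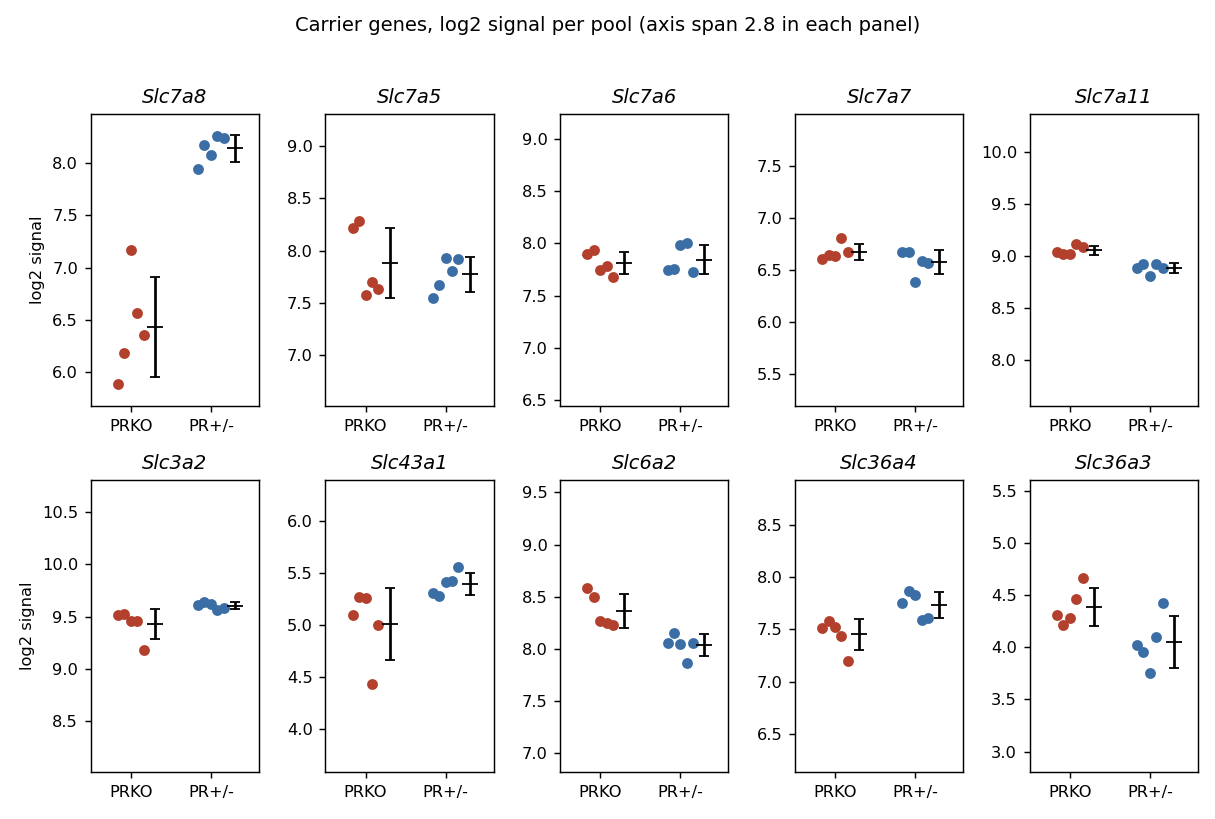
Log2 signal (y axis) of 10 of the genes in each PRKO pool and each PR+/- pool (x axis). Points are pools and the bar beside them is the mean with its SD, n = 5. Every panel spans the same log2 range. Slc7a8 is far apart between genotypes, and its PRKO pools run from 5.88 to 7.17.

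The partners and closest relatives of Slc7a8 did not pass the test. Slc3a2, the heavy chain known as CD98, that holds LAT2 and several other light chains at the cell surface, read 9.52, 9.53, 9.46, 9.46 and 9.18 in PRKO and 9.61, 9.64, 9.62, 9.56 and 9.58 in PR+/-. The groups did not overlap, but the log2 difference was small, at -0.18 ± 0.08 (SE), and did not pass (adjusted p = 0.215). PRKO replicate 5 stood below the other pools, and without it the difference was -0.11. Slc7a5, which encodes LAT1, the large neutral amino acid exchanger closest in role to LAT2, read 8.22, 8.28, 7.58, 7.70 and 7.64 in PRKO and 7.54, 7.67, 7.93, 7.80 and 7.92 in PR+/-. PRKO replicates 1 and 2 lay above all PR+/- pools and the others within or near their range, with a log2 difference of 0.11 and a 95% interval of ± 0.30 (adjusted p = 0.689).

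Ratios of Slc7a8 to both genes within each array were added after the data were seen. Slc7a8 had been picked for its large fall and the other genes differed little. The ratios therefore restate that fall, and their p-values lend it no separate support. The log2 ratio of Slc7a8 to Slc3a2 was -3.00 ± 0.51 in PRKO and -1.46 ± 0.15 in PR+/- (SD, n = 5 each; by an exact two-sided permutation test p = 0.00794, also after adjustment over the 2 ratios). That of Slc7a8 to Slc7a5 was -1.45 ± 0.78 in PRKO and 0.37 ± 0.14 in PR+/- (exact permutation p = 0.00794). Neither ratio overlapped between genotypes, and this p is the smallest the design allows.

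None of the other light chains passed the test in limma (0 of 9), where 4.96% of all genes were called. Among them, Slc7a9, Slc7a10, Slc7a12, Slc7a13 and Slc7a15 lie below the median of mean signal. Dim probe sets there may be near background, so a lack of change in these genes is weakly established. Slc7a6 and Slc7a7, the light chains that exchange cationic for neutral amino acids, had log2 differences of -0.03 and 0.10. Slc7a11, the cystine and glutamate exchanger xCT, read 9.02 to 9.11 in PRKO and 8.81 to 8.92 in PR+/-. It was thus higher in every PRKO pool, by 0.17 ± 0.06 (SE), yet did not pass (adjusted p = 0.143). Slc7a9, the light chain that pairs with the heavy chain gene Slc3a1, had a log2 difference of 0.16 and Slc3a1 one of 0.06. Of 10 light chain genes, Slc7a8 fell, 0 rose and 9 did not pass, these 9 ranging from -0.03 to 0.17. In the order of protein-coding genes on the chromosome, Slc7a8 lies between Cebpe and Rnf212b, which had log2 differences of 0.40 and 0.16 and did not pass.

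Carriers of cationic amino acids, which supply arginine and lysine, did not pass in either direction. Slc7a1, the widely expressed carrier CAT1, read 7.06, 7.03, 6.93, 6.68 and 6.58 in PRKO and 6.93, 6.96, 7.08, 6.96 and 6.78 in PR+/-, so the groups overlapped. Slc7a2, its relative induced in inflammation, had a log2 difference of -0.25 (adjusted p = 0.189), Slc7a3 one of -0.12 and Slc7a4, a relative for which carrier activity is not established, one of -0.24 (adjusted p = 0.144). With Slc7a14 at 0.27, 4 of these 5 had a lower mean in PRKO. Slc7a4 passed without PRKO replicate 1, and Slc7a14 without PRKO replicate 2.

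In the SLC43 family, Slc43a1 encodes LAT3, a carrier of branched-chain amino acids that works without a heavy chain. It read 5.10, 5.27, 5.26, 4.43 and 5.00 in PRKO and 5.31, 5.28, 5.41, 5.42 and 5.55 in PR+/-. The groups did not overlap, PRKO replicate 4 was the lowest, and the log2 difference of -0.38 ± 0.14 (SE) did not pass (adjusted p = 0.125). Without PRKO replicate 4 it was -0.24. Slc43a2, which encodes the related LAT4, had a difference of 0.02, with a wide 95% interval of ± 0.32. For Slc43a3, a carrier of purine nucleobases rather than amino acids, the difference was -0.20 (adjusted p = 0.270), and -0.12 without PRKO replicate 4.

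The 7 SLC1 genes, which encode glutamate carriers and the neutral exchangers ASCT1 and ASCT2, gave no call. Slc1a5, the glutamine exchanger ASCT2, read 9.91, 10.02, 9.31, 9.69 and 9.60 in PRKO and 10.05, 9.87, 10.03, 10.03 and 9.80 in PR+/-. PRKO replicate 3 was the lowest, the groups overlapped, and the log2 difference was -0.25 ± 0.12 (SE, adjusted p = 0.245), or -0.15 without that pool. Its neighbour in function Slc1a4, which encodes ASCT1, had a difference of -0.01. Among glutamate carriers, Slc1a1 was at -0.11, Slc1a3 at 0.04 and Slc1a2 at 0.18.

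Among the 11 SLC38 genes, 0 passed, with log2 differences from -0.24 to 0.27. The sodium-coupled neutral carriers Slc38a1, Slc38a2 and Slc38a4, known as system A and adjacent in the gene order, had differences of -0.18, -0.19 and -0.24 (adjusted p 0.207, 0.225 and 0.131). Slc38a2, which cells raise when starved of amino acids, read 9.52, 9.58, 9.65, 9.73 and 9.58 in PRKO and 9.58, 9.73, 9.96, 9.92 and 9.80 in PR+/-, so the groups overlapped. Slc38a3 and Slc38a5, glutamine carriers of system N, were on the other side of 0, at 0.27 (adjusted p = 0.0989) and 0.21 (adjusted p = 0.241). Both lie below the median of mean signal, as does Slc38a4, and of all genes there 7427 of 9969 were higher in PRKO. Slc38a6, which lies above that median, was also higher, at 0.23 (adjusted p = 0.137). Slc38a7 had a difference of -0.03. Slc38a9, a lysosomal carrier that signals arginine to the growth kinase complex mTORC1, had a difference of 0.09. A second probe set gave -0.20 for Slc38a1 and 0.03 for Slc38a9.

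Of the 4 SLC36 genes, whose carriers move small amino acids with protons, none passed in limma (2 had an unadjusted p under 0.05, as had 21.1% of all genes). Slc36a4 read 7.51, 7.58, 7.53, 7.44 and 7.20 in PRKO and 7.75, 7.87, 7.83, 7.59 and 7.61 in PR+/-. The values did not overlap, although the nearest ones of the groups almost met, and the log2 difference was -0.28 ± 0.09 (SE, adjusted p = 0.0939). Slc36a3, a dim probe set, read 4.21 to 4.66 in PRKO and 3.75 to 4.42 in PR+/-, with a difference of 0.34 ± 0.12 (SE, adjusted p = 0.126). Without PR+/- replicate 5 it was 0.43 and passed (limma adjusted p = 0.0456). Slc36a1, the lysosomal and plasma membrane carrier PAT1, was at -0.10.

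The SLC6 family held the gene that rose. Slc6a2 encodes the noradrenaline transporter, which clears that transmitter after release and is no amino acid carrier. Its log2 signal was 8.58, 8.50, 8.27, 8.25 and 8.23 in PRKO and 8.06, 8.16, 8.05, 7.86 and 8.06 in PR+/-. All PRKO pools lay above all PR+/- pools, and the log2 difference was 0.33 ± 0.09 (SE), a 1.26-fold higher signal (limma adjusted p = 0.0484). That call was close to the threshold: leaving out any one of 8 of the 10 arrays ended it, namely PRKO replicates 1 to 3 and all 5 of PR+/- (adjusted p 0.0613 to 0.116). The serotonin carrier gene Slc6a4 and the dopamine carrier gene Slc6a3 had differences of 0.14 and 0.15 and did not pass. Of 6 nerve and Schwann cell markers measured, 0 passed and all had a higher mean in PRKO, with a summed linear signal of 497 to 951 in PRKO and 395 to 503 in PR+/-. S100b, a glial calcium-binding protein, made up 72.5 to 86.9% of that sum in PRKO and 72.7 to 78.7% in PR+/-, and the other 5 markers summed to 109 to 137 in PRKO and 104 to 112 in PR+/-. The part of those cells in the Slc6a2 result was not tested.

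Carriers for the abundant amino acids of oviduct fluid did not pass. Slc6a6, the taurine carrier, read 9.42, 9.10, 9.30, 9.16 and 9.23 in PRKO and 9.14, 9.17, 9.17, 9.25 and 9.18 in PR+/-. The PR+/- values fell inside the PRKO range, with a log2 difference of 0.06 and a 95% interval of ± 0.16. Slc6a9, the glycine carrier GLYT1 that early mouse embryos also use to regulate their volume, read 7.74, 7.72, 8.03, 7.81 and 7.68 in PRKO and 7.97, 8.17, 8.07, 7.92 and 7.99 in PR+/-. All PRKO pools but replicate 3 lay below every PR+/- pool, and the difference was -0.23 ± 0.08 (SE, adjusted p = 0.132). Apart from these carriers, Slc6a12, a carrier of betaine and GABA, had a difference of 0.35 ± 0.12 (SE, adjusted p = 0.113). It read 4.06 to 4.67 in PRKO and 3.74 to 4.20 in PR+/-. Slc6a12 lies below the median of mean signal, where 7427 of 9969 genes were higher in PRKO.

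The remaining SLC6 genes gave no call. Slc6a8, the creatine carrier, had a log2 difference of 0.01, and Slc6a14, an epithelial carrier of neutral and cationic amino acids, one of 0.22 (adjusted p = 0.274). Slc6a19, a neutral carrier of gut and kidney, read 3.23 to 3.65 in PRKO and 3.00 to 3.20 in PR+/-, without overlap, and its opposite-strand gene Slc6a19os 3.49 to 3.93 in PRKO and 3.15 to 3.45 in PR+/-. Their differences of 0.23 and 0.26 did not pass (adjusted p 0.162 and 0.138), and whether the array kept the strands apart is not given in the sources used here. Slc6a20a and Slc6a20b, near copies of each other, had differences of 0.14 and -0.04, and probes may read both.

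**Figure D2:**
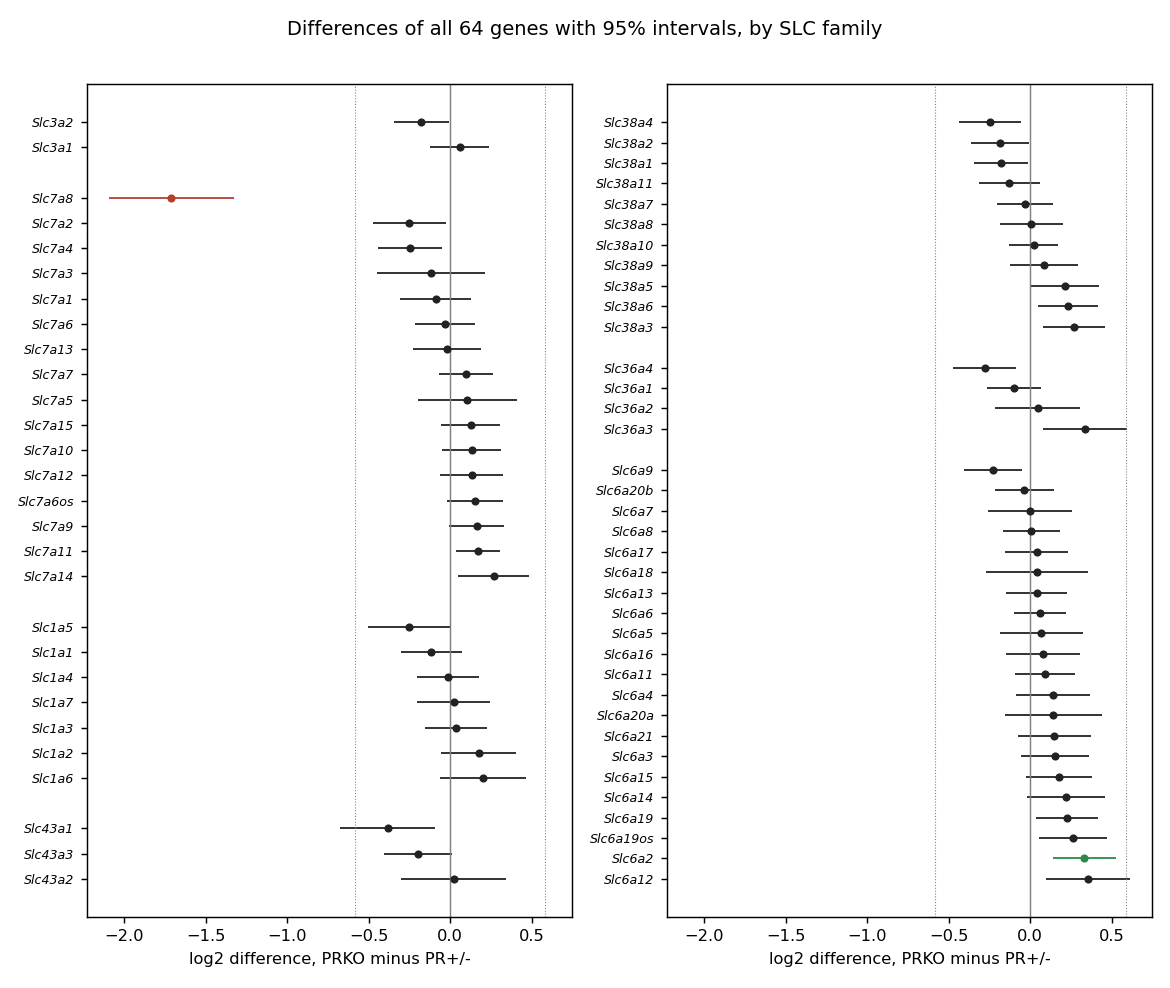
Log2 difference, PRKO minus PR+/-, of all 64 genes (x axis) by SLC family (rows), as points with 95% intervals from the limma fit. The coloured points are Slc7a8 at -1.71 and Slc6a2 at 0.33, and dotted lines mark 1.5-fold. For 59 of the 62 genes not called, the whole interval lies within 1.5-fold.

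Intervals on the signal scale were narrow for most of these genes. Over the 62 genes that did not pass, log2 differences ran from -0.38 (Slc43a1) to 0.35 (Slc6a12). For 59 of the 62 the 95% interval lay wholly within 1.5-fold in both directions, the exceptions being Slc43a1, Slc6a12 and Slc36a3. The median distance from the estimate to either end of the interval was 0.19 over the 64 genes and 0.20 over all genes. These intervals bound the signal and not the RNA level, since 34 of the 64 lie below the median of mean signal, where dim probe sets may be near background.

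Direction went with brightness. Among genes below the median of mean signal, 27 of 34 members were higher in PRKO, with a median log2 difference of 0.13. Over all genes in that range 7427 of 9969 were higher and the median was 0.09. Above the median of mean signal 14 of 30 members were higher, with a median difference of -0.02. Of all genes there 3768 of 9969 were higher, with a median difference of -0.04. Small rises of dim carriers, Slc6a12, Slc6a19 and Slc36a3 among them, therefore lie on the side where the bulk of dim genes lay. Slc7a8 and Slc6a2 are among the brighter genes.

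**Figure D3:**
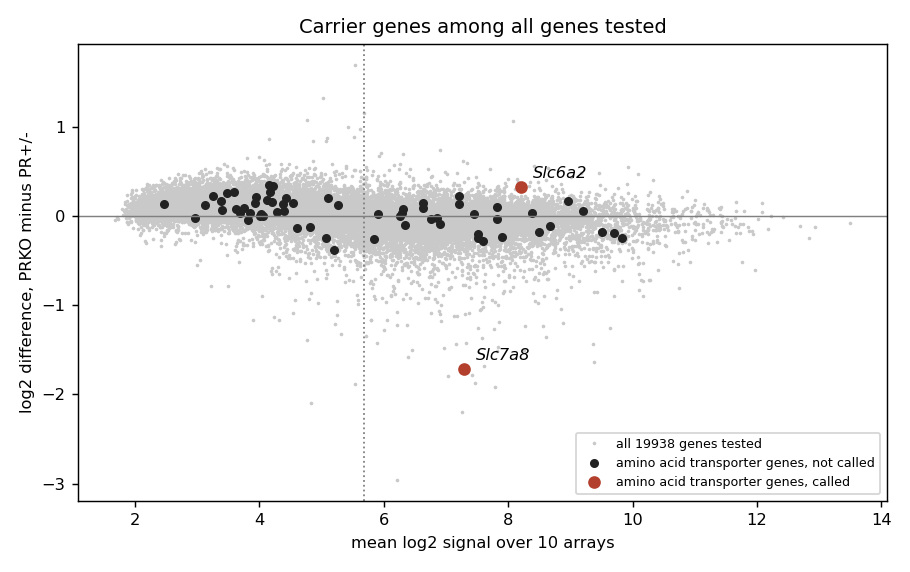
Log2 difference, PRKO minus PR+/- (y axis), against mean log2 signal over 10 arrays (x axis). Grey dots are all 19938 genes tested and large points the 64 genes. The dotted vertical line is the median of mean signal over genes. Dim members lie mostly above 0 together with other dim genes, and Slc7a8 lies far below at -1.71.

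Enzymes that make or break down the cargo of these carriers were lower in part. In a list of glycine, serine, taurine and glutamate metabolism, 6 of 29 measured genes fell, 0 rose and 23 did not pass, with a median of -0.09. Over all genes 3.87% fell and the median was 0.03. The list mixes bright and dim genes. Over all genes above the median of mean signal, 669 of 9969 fell, with a median of -0.04. Glul, glutamine synthetase, read 9.68, 9.77, 9.83, 9.95 and 9.82 in PRKO and 10.57, 10.57, 10.42, 10.58 and 10.54 in PR+/-. It was lower in every PRKO pool, by a log2 difference of -0.73 ± 0.07 (SE), a 1.65-fold lower signal (limma adjusted p = 2.86e-05). Got2, the mitochondrial aspartate aminotransferase, read 9.44, 9.68, 9.30, 9.32 and 9.31 in PRKO and 10.07, 10.23, 9.96, 9.97 and 9.78 in PR+/-, again without overlap. Its signal was 1.51-fold lower (log2 -0.59 ± 0.10, adjusted p = 0.00251).

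The other 4 enzymes of that list changed less. Glud1, glutamate dehydrogenase, had a log2 difference of -0.34 (adjusted p = 0.0186), and Gatm, which makes the creatine precursor from glycine and arginine, one of -0.44 (adjusted p = 0.0237). For Csad, which makes the taurine precursor hypotaurine, it was -0.32 (adjusted p = 0.0271), and for Shmt2, the mitochondrial enzyme that interconverts serine and glycine, -0.32 (adjusted p = 0.0361). Cdo1, the enzyme ahead of Csad in taurine synthesis, had -0.10 and did not pass. Without PR+/- replicate 1 or 2 the calls of Glud1, Gatm, Csad and Shmt2 were lost and 2 genes of the list remained. With 1 array left out, Shmt2 lost its call in 8 of 10 fits, Csad in 4, Gatm in 3 and Glud1 in 2. Glul was called in all 21 alternative settings run for it and Got2 in all but 1.

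In a list of the response to amino acid shortage that runs through ATF4, some genes were lower and none passed as higher. The list holds Atf4 and Eif2ak4 beside genes that ATF4 switches on, and it leaves out every gene of the carrier set. Of 29 measured, 4 fell, 0 rose and 25 did not pass, with a median of -0.08. Over all genes 3.87% fell, 1.09% rose and the median was 0.03. Bright and dim genes are mixed here too. Over all genes above the median of mean signal, 669 of 9969 fell and 76 rose, with a median of -0.04. Psat1 and Shmt2, of serine and glycine synthesis, were at -0.35 and -0.32, Aldh1l2, a mitochondrial folate enzyme, at -0.36, and Cth, which makes cysteine from cystathionine, at -0.43 (adjusted p 0.0344 to 0.0361). Asns, asparagine synthetase and a standard reporter of this response, had -0.15 (adjusted p = 0.230), and Atf4 itself -0.26 (adjusted p = 0.152). These calls were close to the threshold, and the count of 4 became 0 without PRKO replicate 4, PR+/- replicate 3 or PR+/- replicate 4 and 1 without PRKO replicate 1, 3 or 5 or PR+/- replicate 5.

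**Figure D4:**
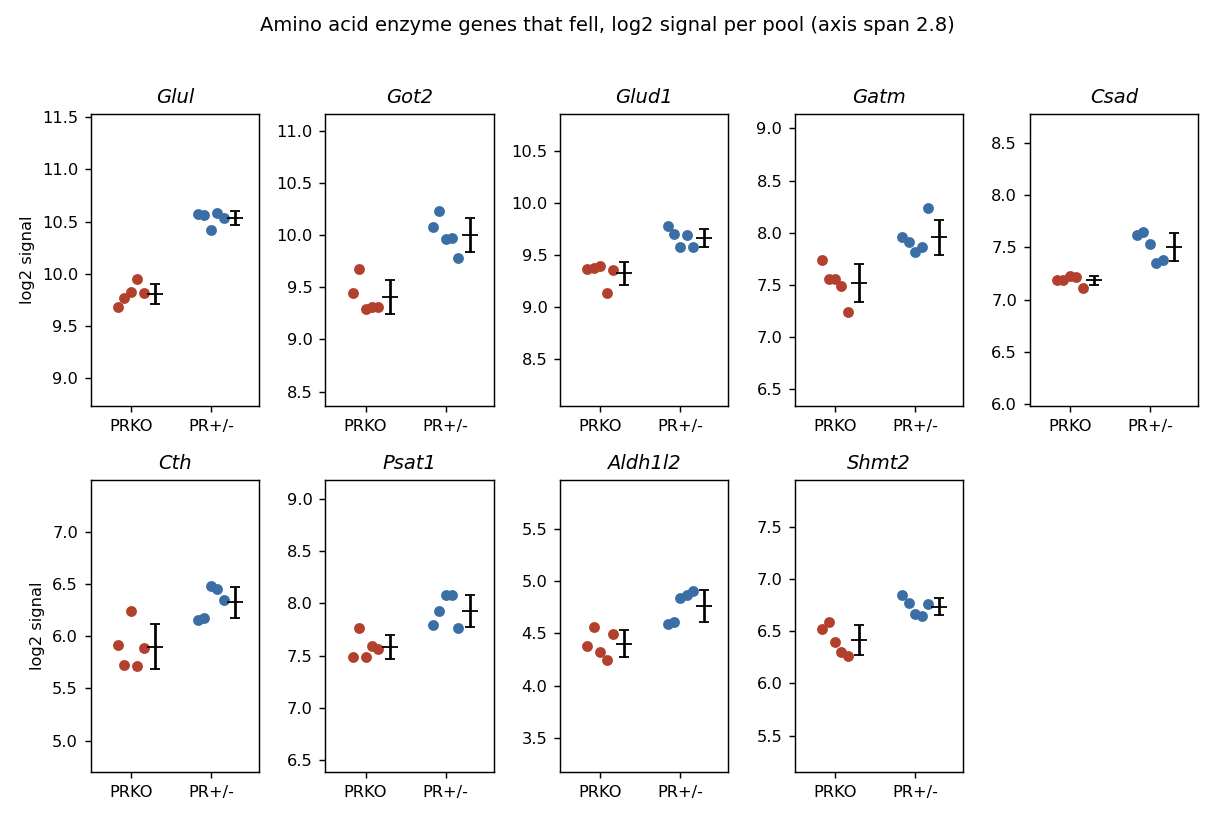
Log2 signal (y axis) of the 9 enzyme genes that fell, in each PRKO pool and each PR+/- pool (x axis). Points are pools, the bar beside them is the mean with its SD (n = 5), and every panel spans the same log2 range. Glul and Got2 have the largest differences of means between genotypes, at -0.73 and -0.59, and Cth has 1 PRKO pool among the PR+/- values.

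Carriers outside these families showed no call. Among 22 measured carriers of peptides, aromatic, mitochondrial and vesicular amino acids, 0 fell and 0 rose in limma at an adjusted p under 0.05, with a median of 0.04. The nearest were Slc17a7, a vesicular glutamate carrier of neurons (0.33, adjusted p = 0.0582), and Slc15a2, the peptide carrier PEPT2 (0.34, adjusted p = 0.0586). Slc17a7 is dim, with means of 4.60 in PRKO and 4.27 in PR+/-, and most dim genes were higher in PRKO. Among 7 carrier partners and regulators, Sgk1, a kinase that raises carrier activity, had a log2 difference of -0.15 and Bsg, an ancillary glycoprotein of monocarboxylate carriers also found with CD98, one of -0.24, and 0 passed. The 27 genes of amino acid sensing to mTORC1 also gave 0 calls, with differences from -0.26 to 0.10. Over all genes only 3.87% fell and 1.09% rose, so 0 calls in lists this short say little.

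Marker genes of other cells moved in the same comparison. All 9 smooth muscle markers fell, with a median log2 difference of -0.72 and a summed linear signal of 5400 to 6823 in PRKO and 9636 to 10683 in PR+/-. In oviduct epithelium, 1 of 7 epithelial markers fell (Cldn3) and 1 of 8 multiciliated markers rose (Cfap43). Further falls were those of 2 of 8 endothelial markers (Pecam1 and Emcn) and 2 of 6 genes listed for mesothelium (Msln and Krt19). Krt19 is not particular to mesothelium, and the other 4 of that list, Wt1 among them, did not pass. Over all genes 3.87% fell and 1.09% rose. Of 8 fibroblast markers 1 fell, and ovarian, oocyte and cumulus, leukocyte, adipocyte and erythroid lists gave 0 calls. Log2 differences ran from -1.51 (Des) to -0.41 (Lmod1) over the 9 muscle markers, and were -1.71 for Slc7a8 and -0.73 for Glul. The part of these cell types in the falls of Slc7a8 and Glul was not tested.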

How the data were processed

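Whole oviducts of 5 PRKO and 5 PR+/- pools were hybridised to Affymetrix whole-transcript arrays, per the labels' protocols. The table deposited by the authors holds 1 value per probe set and array, taken as log2 signal from its range of 1.09 to 13.6, since no label states the scale. Partek was used, per the submitters' processing notes; how background was corrected and values were normalized and summarised over probes is not given in these sources. Array medians were 5.20 to 5.28, and no further normalization was done. Of 35557 rows, 21789 named 1 gene in the platform annotation, 1621 several and 12147 none in that table. The genotype difference was fitted in limma 3.58.1 (R 4.3.3) over 19938 genes, with Benjamini-Hochberg adjustment over all of them and a threshold of 0.05. Replicates are separate pools of 3 animals, and their number limits the precision. Dim probe sets were kept, as no detection values came with the table, so dim probe sets may lie near background.

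The members and lists were chosen with earlier results of these data known. Text names called members, members without overlap, and the brightest and most different member of each family, by rule; others were added for their role or family. From related lists, called genes were named by rule and Cdo1, Asns, Atf4, Slc17a7, Slc15a2, Sgk1 and Bsg after their values were seen. Same-numbered pools did not all deviate together (correlations -0.0126 to 0.159), so no pairing was used. The fit was tested on simulated data. Promoter sequences and gene order are from RefSeq, GRCm38.p6.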

Additional observations from a re-analysis of the deposited data

Results flagged for a closer look

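In 130 groups of 5 values, those of the 64 genes and Pgr in each genotype, 7 had 1 pool standing apart by Dixon's test at its 95% critical value. Chance flags about 1 in 20 groups. In PRKO, Slc38a5 was high in replicate 3 at 5.59, against 5.10 to 5.16 in the others, and Slc6a19os was high in the same replicate at 3.93, against 3.49 to 3.57. PRKO replicate 5 was low in Slc3a2, at 9.18 against 9.46 to 9.53, and in Slc7a3, at 4.24 against 4.83 to 4.95. In PR+/-, Slc3a1 was high in replicate 1 at 4.49, against 4.30 to 4.35, Slc6a13 was high in replicate 5 at 3.80, against 3.60 to 3.64, and Slc6a4 was low in replicate 3 at 6.86, against 7.14 to 7.24. PRKO replicate 3 had the highest Cyp11a1 signal of its group and PRKO replicate 5 the lowest interquartile range, and their part in these values was not tested.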

How the results depend on the processing

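Slc7a8 was called in all 21 alternative settings, with log2 differences from -1.89 to -1.57 (adjusted p up to 0.00202, with the array's interquartile range as a covariate). The count of members that fell, 1, became 2 without the dimmest 50% of genes and at an adjusted p under 0.1, and was 1 to 2 with 1 array left out. The count that rose, 1, became 2 with quantile normalization, with the replicate block and at an adjusted p under 0.1, and 0 with the interquartile range as covariate, without the 2 arrays highest in ovarian markers and at an adjusted p under 0.01, and was 0 to 1 with 1 array left out. Of the amino acid response genes, 4 fell, against 1 with quantile normalization, 2 with cyclic loess, 0 with the interquartile range, 1 without the 2 arrays and 0 to 4 with 1 array left out. Of the metabolism genes, 6 fell, against 1 with the interquartile range, 3 without the 2 arrays and 2 to 7 with 1 array left out. Slc6a6 changed sign with the interquartile range (-0.0059, adjusted p = 0.988). Over all genes, 771 fell and 217 rose; the counts were 264 and 58 with the interquartile range, 489 and 73 without the 2 arrays, 672 and 349 with median centring, and 497 to 882 and 84 to 330 with 1 array left out (497 and 84 without PR+/- replicate 1, 505 and 93 without PR+/- replicate 2, and 330 rose without PRKO replicate 4; 126, 132 and 136 rose without PR+/- replicate 3, PR+/- replicate 4 and PRKO replicate 3). With the replicate block 788 fell and 254 rose, Slc36a3 was called (adjusted p = 0.0344), and Gatm and Aldh1l2 were not (0.0548 and 0.0608). Same-numbered pools correlated at -0.0126 to 0.159, and only replicates 4 and 5 correlated best with their own number. Of 492 values for 24 named genes, 418 kept direction and side of the threshold, 69 lost the call, 4 gained it and 1 changed sign. The causes were not tested. Depth is not defined for arrays, and dim probe sets may lie near background.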
